A study of Mus musculus with 4 samples.

Results

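The genes of the NF-kB subunits and inhibitors were examined in mammary tumours of MMTV-Neu mice with and without the receptor tyrosine kinase AXL. The set held 10 genes of the 38293 gene rows in the count files, chosen by matching their Ensembl mouse gene IDs to a fixed list of symbols. They were the genes of the 5 Rel proteins (Nfkb1, Nfkb2, Rela, Relb, Rel), the IkB family genes Nfkbia, Nfkbie, Bcl3 and Nfkbiz, and Tnfaip3. All 10 were found and all 10 passed the filter on low counts, which left 14330 genes for testing. The compared groups were AXL KO tumours (genotype AXL-/-, 2 libraries) and WT tumours (AXL+/+, 2 libraries), all from FVB mice. Both groups carry the MMTV-Neu transgene, the Neu (Erbb2) oncogene driven by the mouse mammary tumour virus promoter, so tumours without the oncogene were not part of the comparison. The labels give no age, and they do not say that the 2 tumours of a group came from separate animals, so the tests measure the spread between these libraries only.

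NF-kB is a family of dimeric transcription factors built from Rel proteins. In resting cells the dimers are held in the cytoplasm by IkB proteins, and signals from TNF, interleukin 1 or pattern recognition receptors activate the IKK kinase, which marks IkB for degradation. A separate branch, driven by receptors such as RANK and the lymphotoxin beta receptor, processes the Nfkb2 product p100 to p52, which pairs with RelB. Several inhibitors are themselves NF-kB target genes and feed back on the pathway. In the mouse mammary gland the pathway takes part in alveolar development and involution.

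Reads counted in genes came to between 18929743 and 33131739 per library. Axl checked the labels, with 4.75 and 4.89 CPM (reads scaled to the library total with edgeR's TMM factors) in AXL KO replicates 1 and 2, against 61.8 and 35.2 CPM in WT replicates 1 and 2. Its log2 difference was −3.33 (SE 0.35), and over all genes edgeR's quasi-likelihood test gave it an adjusted p of 0.9997 and DESeq2 one of 2.23e-13. WT replicate 2 stood apart from the other libraries. The summed level of 12 interferon response genes was 1398 and 1476 CPM in AXL KO, against 1016 and 55.1 CPM in WT. That of 10 hypoxia targets was 904 and 711 CPM in AXL KO, against 722 and 1983 CPM in WT. AXL KO replicate 2 has another prefix in its description than the other 3 libraries, so values without it are those within a single prefix. The mammary epithelial markers Epcam, Krt8, Krt18, Krt19, Cdh1 and Elf5 were all present, with a summed level of 3319 and 3065 CPM in AXL KO and of 3303 and 3890.0 CPM in WT.

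None of the 10 genes passed edgeR's quasi-likelihood test between AXL KO and WT at an adjusted p of 0.05, where 0% of all 14330 genes did. At an unadjusted p under 0.05 by that test there was 1 member, Bcl3, beside 2.19% of all genes tested in either direction. Bcl3 was lower in AXL KO, as were 1.04% of all genes at that threshold. DESeq2 and limma-voom also called 0 members, beside 0.112% and 0% of all genes. Bcl3 was again the 1 member with an unadjusted p under 0.05 in DESeq2, beside 3.5% of all genes, and in limma-voom, beside 1.99%. In AXL KO, Bcl3, Tnfaip3 and Rel were lower in each library than in either WT library, which is 3 of 10 members, beside 14.5% of all genes tested. No member was higher in each AXL KO library than in either WT library, beside 14.7% of all genes. The log2 difference was negative for 7 members, beside 50.3% of all genes, and positive for 3, with a median of −0.20, against −0.00 over all genes tested. Leaving out WT replicate 1 brought the members' median to −0.01, and leaving out WT replicate 2 brought it to −0.34. These are tumours in bulk, so fewer cells of a type and less RNA per cell cannot be told apart.

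**Figure D1:**
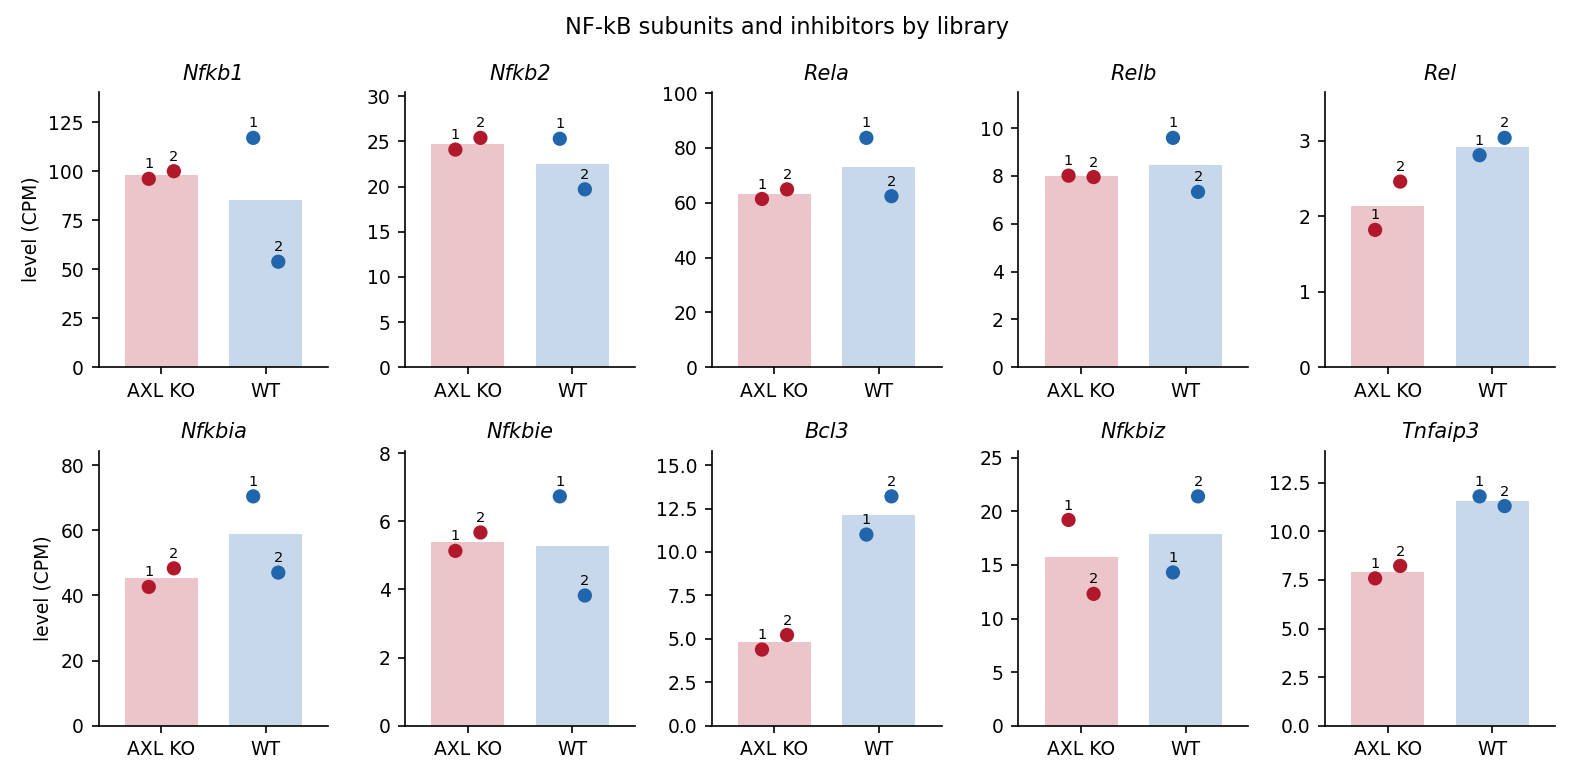
Level of each of the 10 genes in CPM (vertical axis from 0, scaled per gene); points are single libraries with their replicate number, AXL KO on the left and WT on the right, and bars are means of 2 libraries. Bcl3, Tnfaip3 and Rel are the genes whose groups do not overlap.

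Bcl3 had the largest log2 difference of the 10 genes. It encodes an atypical nuclear IkB protein that binds p50 and p52 homodimers and can turn them into activators. Bcl3 (ENSMUSG00000053175) lies on the minus strand at chr7:19808462-19822770 in GRCm38. It had 4.38 and 5.22 CPM in AXL KO, against 11.0 and 13.2 CPM in WT. Both knockout libraries were thus lower than both WT libraries. The means were 4.8 ± 0.593 CPM in AXL KO and 12.1 ± 1.56 CPM in WT (SD, n = 2 each). The counts behind these levels were 82 and 174 reads in AXL KO and 236 and 253 reads in WT. Exact Poisson intervals at 95%, which cover counting error only, ran from 3.48 to 5.44 and from 4.47 to 6.05 CPM in AXL KO, and from 9.67 to 12.5 and from 11.7 to 15.0 CPM in WT.

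The log2 difference of Bcl3 was −1.33 (SE 0.30), a 2.52-fold lower level in AXL KO. edgeR's quasi-likelihood test gave an unadjusted p of 0.00649 and, over all genes, an adjusted p of 0.9997. DESeq2 gave an adjusted p of 0.171. Of all genes tested 1.24% had a log2 difference this low or lower. When 1 library was left out the difference was −1.22 without AXL KO replicate 1, −1.49 without AXL KO replicate 2, −1.46 without WT replicate 1 and −1.19 when WT replicate 2 was dropped. Its replicates were apart by 0.25 on the log2 scale in AXL KO and by 0.26 in WT.

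The Bcl3 locus overlaps Gm16175 and Gm16174, annotated antisense genes on the other strand, and the strand setting of the counting is not given. Gm16175 shares 6.51% of the exon bases of Bcl3 and had 0 reads in every library. Gm16174 shares none of them and had 8 and 13 reads in AXL KO, against 10 and 19 reads in WT. Reads assigned to these genes were thus few beside those of Bcl3. Bcl3 also lies 5.93 Mb from Axl on chromosome 7. Within 10 Mb of Axl 278 other genes were tested. Of these 59, or 21.2%, were lower in each AXL KO library than in either WT library, and 42, or 15.1%, were higher, beside 14.5% and 14.7% of all genes tested, with a median log2 difference of −0.02. A more negative log2 difference than that of Bcl3 was found for 3 of the 278. The part of this position in the Bcl3 result was not tested.

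Relb, the partner of p52, lies 179 kb from Bcl3 (ENSMUSG00000002983, chr7:19606217-19629438, minus strand) and did not share its pattern. Relb had 8.01 and 7.95 CPM in AXL KO, against 9.59 and 7.33 CPM in WT. The AXL KO values lay between the WT values. Its log2 difference was −0.08 (SE 0.30), with an unadjusted p of 0.79 by edgeR's quasi-likelihood test (adjusted p = 0.9997). It turned to 0.12 when WT replicate 1 was left out and was −0.26 when WT replicate 2 was.

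Tnfaip3 encodes A20, a ubiquitin-editing enzyme that shuts off signalling to IKK. Tnfaip3 (ENSMUSG00000019850, chr10:19000910-19015657, minus strand) had 7.58 and 8.22 CPM in AXL KO, against 11.8 and 11.3 CPM in WT. The groups did not overlap, and the replicates of each group lay close together, with a gap of 0.11 on the log2 scale in AXL KO and 0.06 in WT. Tnfaip3 was 1.46-fold lower in AXL KO, a log2 difference of −0.55 (SE 0.27), and edgeR's quasi-likelihood test gave an unadjusted p of 0.0946 (adjusted p = 0.9997). The log2 difference ran from −0.63 without AXL KO replicate 2 to −0.50 without AXL KO replicate 1.

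Rel encodes c-Rel, a Rel protein best known from lymphocytes. Rel (ENSMUSG00000020275, chr11:23736847-23770970, minus strand) was the member with the fewest reads, 34 and 82 in AXL KO and 60 and 58 in WT. Its level was 1.82 and 2.46 CPM in AXL KO, against 2.81 and 3.04 CPM in WT, with the groups just apart. The Poisson interval of AXL KO replicate 2, from 1.96 to 3.05 CPM, overlapped that of WT replicate 1, from 2.14 to 3.61 CPM, so the separation of these libraries is within counting error. The log2 difference was −0.44 (SE 0.39), with an unadjusted p of 0.311 (edgeR's quasi-likelihood test, adjusted p = 0.9997). Leaving out a library gave −0.25 without AXL KO replicate 1 and −0.70 without AXL KO replicate 2.

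Since Bcl3, Tnfaip3 and Rel are the members with non-overlapping groups, the 250 bases before their RefSeq start sites (GRCm38.p6) are shown, 5′ to 3′ on the strand of the gene. Capitals mark matches to the kappa B consensus, the sequence that NF-kB dimers bind, on either strand.
Bcl3 at chr7:19822756-19823005, minus strand: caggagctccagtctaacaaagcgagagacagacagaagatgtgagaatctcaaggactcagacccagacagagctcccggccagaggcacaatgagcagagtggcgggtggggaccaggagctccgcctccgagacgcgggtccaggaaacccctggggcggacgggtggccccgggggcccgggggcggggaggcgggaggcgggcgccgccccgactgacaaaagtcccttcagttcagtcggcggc
Tnfaip3 at chr10:19015411-19015660, minus strand: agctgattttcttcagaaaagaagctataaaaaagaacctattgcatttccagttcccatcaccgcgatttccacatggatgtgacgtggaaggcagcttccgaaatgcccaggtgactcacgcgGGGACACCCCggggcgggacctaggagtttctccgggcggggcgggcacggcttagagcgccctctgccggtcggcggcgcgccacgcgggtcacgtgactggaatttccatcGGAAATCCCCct
Rel at chr11:23770970-23771219, minus strand: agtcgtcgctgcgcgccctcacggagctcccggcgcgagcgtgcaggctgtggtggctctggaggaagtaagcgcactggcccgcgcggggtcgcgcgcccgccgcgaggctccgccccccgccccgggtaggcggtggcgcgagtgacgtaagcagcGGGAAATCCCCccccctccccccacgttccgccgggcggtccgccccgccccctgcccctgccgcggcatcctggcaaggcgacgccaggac
In the first of its 2 windows Tnfaip3 had 2 matches before the RefSeq start site, and its other window had none. By the gene coordinates used here Tnfaip3 begins further upstream, at chr10:19015657, so both matches lie inside the annotated gene. Rel had a single stretch in which 2 matches overlap, and Bcl3 had none before its start. The Bcl3 match, GGGAAGTCCC, began at base 3 of the transcript, counted from 1 at the start site.

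The search ran over 300 bases, the 250 before the start and 50 from it on, for the 7 members with such a sequence, Bcl3, Nfkb2, Rela, Rel, Nfkbia, Nfkbie and Tnfaip3. The kappa B consensus was matched in 6 of them and not in Rela. Of all 32841 windows of this length 4.51% held a match. The shares over all windows count single windows, while the 7 members had 10 windows, so a member with several had more chances of a match. Windows 2 and 3 of Nfkb2 overlap and share the match GGGACTTTCC. The looser pattern of GGG, any 5 bases and CC, on either strand, of which every consensus match is a case, was found in all 7 members and in 50.8% of all windows. The pattern TTCNNNGAA, the core of STAT binding sites and the same on both strands, was found in 1 member, Nfkb2, and in 8.3% of all windows. A match is a run of letters and does not show that a factor binds there. Nfkbia carried the match GGAAATTCCC at 29 bases before its start, and Nfkbie carried GGGGGATTCC at 106 bases before its start. In the first of 3 windows of Nfkb2, the stretches GGGAATTCCCC and GGGGCTTTCC lay 39 and 11 bases before the start. That start is the most upstream of the RefSeq starts searched. By the gene coordinates used here Nfkb2 begins further upstream, at chr19:46304320, so this window lies inside the annotated gene. Members with and without overlap of the groups thus both held matches.

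Among the genes of the Rel proteins, Nfkb1 had the widest gap between the WT replicates. Nfkb1 encodes p105, the precursor of p50 (ENSMUSG00000028163, chr3:135584655-135691547, minus strand). It had 96.1 and 100.0 CPM in AXL KO, against 117 and 53.8 CPM in WT. The AXL KO libraries lay close together and between the WT libraries, and WT replicate 2 was the lowest. The gap between replicates on the log2 scale was 0.06 in AXL KO and 1.12 in WT. The log2 difference of 0.20 (standard error 0.38, unadjusted p = 0.624 and adjusted p = 0.9997 by edgeR's quasi-likelihood test) turned to −0.26 when WT replicate 2 was left out and was 0.87 when WT replicate 1 was. In the fit without WT replicate 1, Nfkb1 had an unadjusted p of 0.00366 and an adjusted p of 0.0884 by edgeR, while 20.3% of all genes had an unadjusted p under 0.05 there. That fit has WT replicate 2 as its only WT library, so its spread comes from the AXL KO libraries and the lone WT library is assumed to vary like them.

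Rela and Nfkb2 overlapped between the groups as well. Rela encodes p65, the main transactivating subunit (ENSMUSG00000024927, chr19:5637483-5648130, plus strand). Rela had 61.4 and 64.9 CPM in AXL KO, against 83.7 and 62.4 CPM in WT, a log2 difference of −0.21 (SE 0.21; edgeR's quasi-likelihood test, unadjusted p = 0.363, adjusted p = 0.9997). Only WT replicate 1 stood above the other 3 libraries, and without it the difference was 0.02. Nfkb2 encodes p100, the precursor of p52 (ENSMUSG00000025225, chr19:46304320-46312385, plus strand). Nfkb2 had 24.1 and 25.4 CPM in AXL KO, against 25.3 and 19.7 CPM in WT, a log2 difference of 0.14 (SE 0.23; edgeR's quasi-likelihood test, unadjusted p = 0.571, adjusted p = 0.9997). AXL KO replicate 1 lay within the WT range and AXL KO replicate 2 just above it. The log2 difference turned to −0.03 when WT replicate 2 was left out and was 0.33 when WT replicate 1 was. The exons of Nfkb2 overlap those of Psd on the other strand over 6.52% of its exon bases, and Psd itself had between 18 and 30 reads a library.

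The groups overlapped for both classical inhibitors among the members. Nfkbia encodes IkB alpha, which NF-kB itself induces (ENSMUSG00000021025, chr12:55489410-55492647, minus strand). Nfkbia had 42.6 and 48.3 CPM in AXL KO, against 70.4 and 47.0 CPM in WT. WT replicate 2 lay between the AXL KO libraries, and the log2 difference of −0.37 (standard error 0.25) was −0.05 when WT replicate 1 was left out and −0.63 when WT replicate 2 was. Nfkbie encodes IkB epsilon (ENSMUSG00000023947, chr17:45555703-45563169, plus strand). Nfkbie had 5.13 and 5.67 CPM in AXL KO, against 6.73 and 3.82 CPM in WT, so the WT libraries lay on either side of the knockout ones. Its log2 difference of 0.03 (standard error 0.40) was −0.32 when WT replicate 2 was left out, −0.06 when AXL KO replicate 2 was and 0.50 when WT replicate 1 was. By edgeR's quasi-likelihood test the unadjusted p-values were 0.202 for Nfkbia and 0.939 for Nfkbie, with an adjusted p of 0.9997 for each.

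Nfkbiz encodes IkB zeta, like the Bcl3 product an atypical nuclear IkB protein, which supports a second wave of NF-kB targets (ENSMUSG00000035356, chr16:55811375-55838899, minus strand). Nfkbiz had 19.2 and 12.3 CPM in AXL KO, against 14.3 and 21.4 CPM in WT. It was the only member whose AXL KO libraries differed from each other by more than 0.5 on the log2 scale, with a gap of 0.64, beside 0.58 in WT. Each group held 1 high and 1 low library. Its log2 difference was −0.18 (SE 0.35; edgeR's quasi-likelihood test, unadjusted p = 0.62, adjusted p = 0.9997), and it was 0.13 without WT replicate 2, 0.09 without AXL KO replicate 2 and −0.54 without AXL KO replicate 1. The atypical IkB genes Bcl3 and Nfkbiz thus had different patterns over the libraries.

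**Figure D2:**
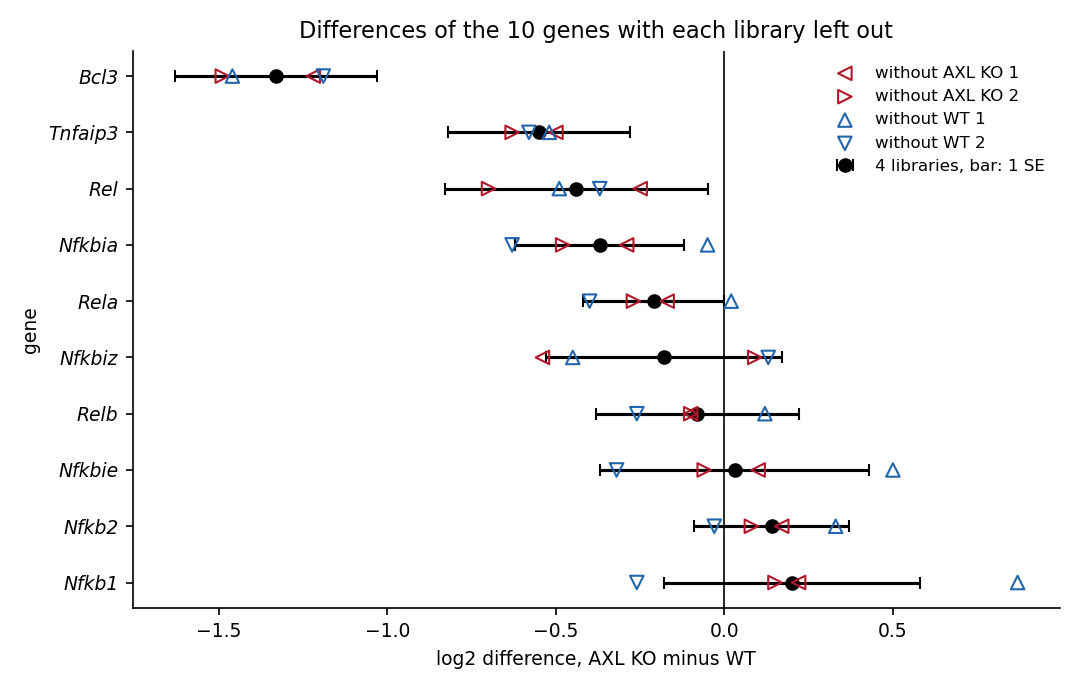
Log2 difference of AXL KO minus WT for each gene (horizontal axis) from edgeR on 4 libraries (black, bar of 1 standard error) and with each library left out (open triangles). The estimates of Bcl3 stay between −1.49 and −1.19, while those of Nfkb1 run from −0.26 to 0.87.

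Across the members, the AXL KO libraries resembled each other more than the WT libraries did. The median gap between replicates was 0.128 on the log2 scale in AXL KO and 0.403 in WT, against 0.222 and 0.396 over all genes tested, and it was larger in WT for 7 of the 10. WT replicate 1 was the highest library for 6 members (Nfkb1, Rela, Relb, Nfkbia, Nfkbie and Tnfaip3). WT replicate 2 was the lowest for 4 (Nfkb1, Nfkb2, Relb and Nfkbie) and the highest for Bcl3, Rel and Nfkbiz. Counts of members therefore hung on the WT library used. Set against WT replicate 1 alone, 8 members were lower in each AXL KO library, beside 33.7% of all genes, and 0 were higher, beside 33.2%. Set against WT replicate 2 alone, 4 members were lower in each AXL KO library, beside 38.8% of all genes, and 4 were higher, beside 40.1%.

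Levels were compared between genes as TPM, which divide counts by the length of the annotated exons and scale each library to the same total. Nfkbia was highest, at 90.6 ± 13.1 TPM in AXL KO and 120.0 ± 39.3 TPM in WT (SD, n = 2 each), followed by Rela at 65.9 ± 6.21 TPM in AXL KO and 78.1 ± 19.7 TPM in WT. Nfkb1 and Nfkb2 came next, at 26.1 ± 2.16 and 17.3 ± 1.59 TPM in AXL KO and 23.5 ± 13.3 and 16.1 ± 3.58 TPM in WT. Nfkbiz averaged 9.95 ± 2.56 TPM in AXL KO and 11.5 ± 2.7 TPM in WT. Relb, Nfkbie and Tnfaip3 averaged between 3.51 and 7.15 TPM in either group, and Rel was lowest at 0.922 ± 0.246 TPM in AXL KO and 1.28 ± 0.0115 TPM in WT. The order Nfkbia over Rela over Nfkb1 over Nfkb2 held in 4 of 4 libraries. By mean TPM over all libraries Bcl3, Nfkbiz, Relb, Nfkbie, Tnfaip3 and Rel followed in this order. The range of each gene over the libraries overlapped that of its neighbour in the order, except between Rela and Nfkb1 and between Tnfaip3 and Rel. The order rests on the exon lengths used, such as 12061 bases for Nfkb1 and 3072 for Rela. By CPM Nfkb1 was above Rela in both AXL KO libraries (96.1 and 100.0 against 61.4 and 64.9 CPM). It was also above Rela in WT replicate 1 (117 against 83.7 CPM), but not in WT replicate 2 (53.8 against 62.4 CPM).

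Bcl3 stood at a different rank in each group. It stood at rank 7 and 6 of 10 in AXL KO, with 5.45 and 7.02 TPM, against rank 5 and 3 in WT, with 15.1 and 16.9 TPM. Bcl3 was above Nfkbiz in 2 of 4 libraries, both of them WT. In WT replicate 2 its TPM was also above those of Nfkb1 and Nfkb2, which encode the precursors of the p50 and p52 proteins it binds. By CPM, at 13.2 in that library, Bcl3 was below both Nfkb1 (53.8) and Nfkb2 (19.7). The TPM of Bcl3 over the summed TPM of Nfkb1 and Nfkb2 was 0.134 and 0.152 in AXL KO, against 0.293 and 0.611 in WT.

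Shares and ratios among the other members were computed in the same way. Rela made up 56.3% and 56.6% of the summed TPM of the 5 Rel proteins in AXL KO, against 60.1% and 64.7% in WT. Nfkb1 made up 22.4% and 22.2% in AXL KO, against 21.5% and 14.2% in WT. Nfkb2 made up 14.8% and 14.9% in AXL KO, against 12.2% and 13.7% in WT. In these 3 shares the groups did not overlap, with Rela lower and Nfkb1 and Nfkb2 higher in AXL KO. Relb and Rel together made up 6.49% and 6.36% in AXL KO, between the WT values of 6.27% and 7.32%. The shares are parts of the same total, so they are not separate results. For single genes in CPM, 14.5% of all tested were lower, and 14.7% higher, in each AXL KO library than in either WT library. No such share was computed for parts of a total or for ratios. Nfkb2 over Nfkb1 was 0.661 and 0.669 in AXL KO, between the WT values of 0.568 and 0.962. The summed TPM of Nfkbia, Nfkbib and Nfkbie over that of Rela, Relb and Rel was 1.62 and 1.71 in AXL KO, against 1.83 and 1.75 in WT, without overlap of the groups. These ratios are descriptions of single libraries, with no test, and those with Nfkb1 rest on its exon length of 12061 bases.

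**Figure D3:**
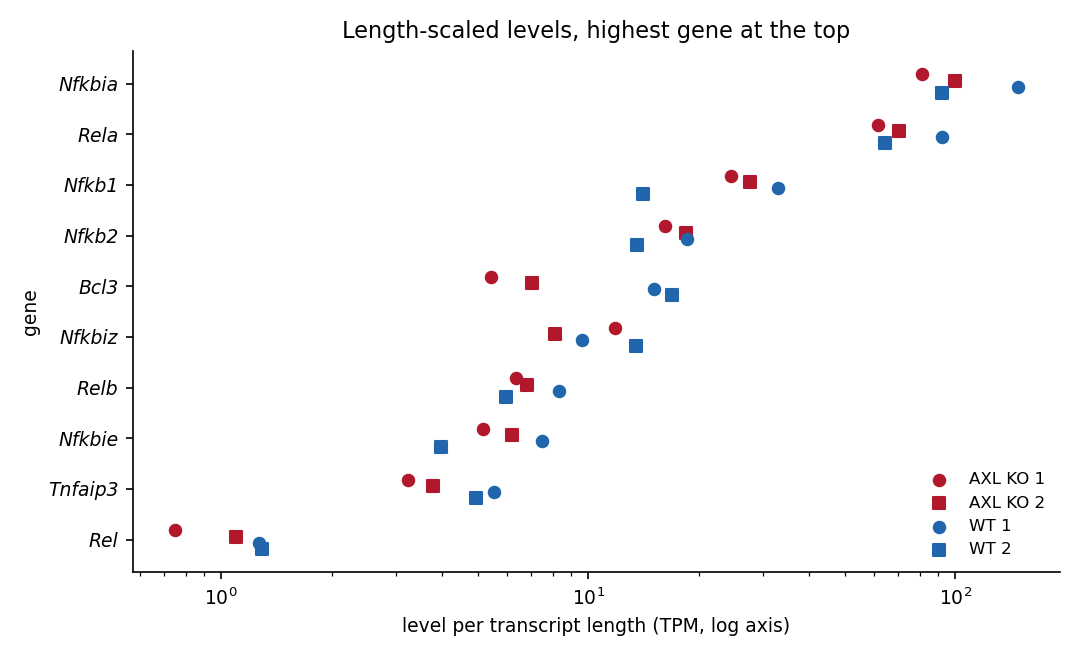
Length-scaled level of each gene in TPM (log axis) in each library, with AXL KO in red, WT in blue and replicates 1 and 2 as circles and squares. Bcl3 lies at 5.45 and 7.02 TPM in AXL KO and at 15.1 and 16.9 TPM in WT.

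The genes around the subunits were described by role, in 6 further lists of 106 genes in all, of which 91 were tested. Of these 0 passed edgeR at an adjusted p of 0.05, and DESeq2 called 0. An unadjusted p under 0.05 was reached by 1 gene, beside 2.19% of all genes tested. Of the 91, 15 were lower and 8 higher in each AXL KO library than in either WT library, beside 14.5% and 14.7% of all genes. The median log2 difference was 0.03.

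Among the adaptors and ubiquitin ligases that carry signals to IKK, 7 of 20 tested genes were lower in each AXL KO library than in either WT library and 1 was higher, beside 14.5% and 14.7% of all genes. Card10, a scaffold protein gene, had 9.13 and 10.3 CPM in AXL KO, against 15.1 and 16.8 CPM in WT, a log2 difference of −0.71 (SE 0.26; edgeR's quasi-likelihood test, unadjusted p = 0.0377, adjusted p = 0.9997). Malt1, whose product works with CARD scaffolds and BCL10 and has protease activity, had 26.2 and 27.7 CPM in AXL KO, against 32.2 and 50.7 CPM in WT. The ubiquitin ligase gene Traf6 had 80.9 and 84.6 CPM in AXL KO, against 99.7 and 106 CPM in WT, and Sharpin, a subunit of the linear ubiquitin ligase, had 28.5 and 28.5 CPM in AXL KO, against 33.8 and 39.5 CPM in WT. In these 4 genes the groups did not overlap, but they were named for the smallest p of the list, which favours such genes. The list as a whole had 10 positive and 10 negative differences and a median of 0.01, but without WT replicate 2 only 5 were positive and the median was −0.12.

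The IKK kinases and the kinases above them had differences in both directions. Of 16 tested, 7 differences were positive and 9 negative, with a median of −0.03 (0.06 without WT replicate 1, −0.11 without WT replicate 2). In this list 1 gene lay below and 2 above both WT libraries, beside 14.5% and 14.7% of all genes. The genes with the smallest p were Tab1, Irak4, Tab3 and Irak1, at log2 differences of −0.23, −0.33, 0.27 and 0.22. The first of these encodes a partner of the kinase TAK1, as does Tab3, and the Irak genes encode kinases of interleukin 1 and Toll-like receptor signalling.

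Among the other inhibitors and brakes 12 genes were tested, of which 4 lay below both WT libraries and 1 above, beside 14.5% and 14.7% of all genes. The median was −0.04 (−0.15 without WT replicate 1, −0.12 without WT replicate 2). Those below included the ubiquitin ligase gene Itch, Tax1bp1, whose product works with A20, and Otulin, which encodes a deubiquitinase of linear chains, at log2 differences of −0.23, −0.21 and −0.17. The IkB gene Nfkbib, named here outside the rule of smallest p, also lay below. It had 17.1 and 17.9 CPM in AXL KO, against 19.6 and 19.6 CPM in WT, a log2 difference of −0.16. The deubiquitinase gene Cyld lay above, at 78.3 and 82.7 CPM in AXL KO, against 73.3 and 58.0 CPM in WT. These differences were smaller than that of Tnfaip3.

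Of 14 receptor genes tested 7 differences were positive and 7 negative (median 0.01, or 0.26 without WT replicate 1 and −0.04 without WT replicate 2). Of these genes 1 lay below and 2 above both WT libraries, beside 14.5% and 14.7% of all genes. Tlr3, the receptor for double-stranded RNA, had 153 and 155 CPM in AXL KO, against 126 and 59.8 CPM in WT. Without WT replicate 1 Tlr3 passed the test, at a log2 difference of 1.36 (edgeR, adjusted p = 0.0444), a fit in which 1.51% of all genes passed and in which WT replicate 2 is the only WT library and the spread comes from the AXL KO libraries alone. Its difference was 0.30 without WT replicate 2. Tnfrsf11a, the gene of RANK, had 65.3 and 59.1 CPM in AXL KO, against 57.7 and 34.6 CPM in WT. Tnfrsf12a, the receptor gene for the cytokine TWEAK, had 11.2 and 32.9 CPM in AXL KO, against 36.0 and 41.3 CPM in WT, and Il1rap, the interleukin 1 receptor accessory gene, 79.2 and 72.6 CPM in AXL KO, against 76.3 and 146 CPM in WT.

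Of 12 ligand genes, 7 stayed under 1 CPM in every library, and 9 could be tested. All 9 had a positive log2 difference (median 0.26), while 50.3% of all genes had a negative one. None had groups apart, beside 14.5% of all genes lower and 14.7% higher, and WT replicate 2 was the lowest library for 6. The tested genes included Lta, Tnfsf13b, Il1b and Il18, which stayed under 1 CPM in every library, with standard errors from 0.54 to 0.65. Without WT replicate 2 only 6 of the 9 were positive (median 0.20), and without WT replicate 1 the median was 1.05. Tnfsf12, which encodes TWEAK, had the highest CPM of the list and was chosen after its values were seen, at 19.2 and 19.0 CPM in AXL KO, against 24.0 and 8.32 CPM in WT. The lymphotoxin gene Ltb had 3.69 and 5.04 CPM in AXL KO, against 3.83 and 0.681 CPM in WT, and its relative Lta stayed between 0.314 and 0.78 CPM. Tnfsf13b, the gene of the B cell factor BAFF, stayed between 0.366 and 0.78 CPM, and the alarmin gene Il33 had 1.66 and 8.79 CPM in AXL KO, against 1.82 and 5.65 CPM in WT.

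Of 30 known NF-kB target genes 20 were tested, with 12 positive and 8 negative differences and a median of 0.18. There were 2 genes each below and above both WT libraries, beside 14.5% and 14.7% of all genes. Gadd45b, a stress response gene, had 1.82 and 4.35 CPM in AXL KO, against 5.33 and 5.92 CPM in WT. The survival gene Bcl2l1 had 73.5 and 69.7 CPM in AXL KO, against 76.0 and 94.3 CPM in WT. Bcl2a1b, of a family with close copies whose reads are uncertain, had 2.56 and 2.94 CPM in AXL KO, against 2.15 and 1.52 CPM in WT. The chemokine gene Cxcl10, also a target of interferon, had 2.19 and 6.87 CPM in AXL KO, against 2.71 and 0.366 CPM in WT. WT replicate 2 was the lowest library for 13 of the 20, and without it 10 were positive and the median was 0.00, while without WT replicate 1 the median was 0.50.

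**Figure D4:**
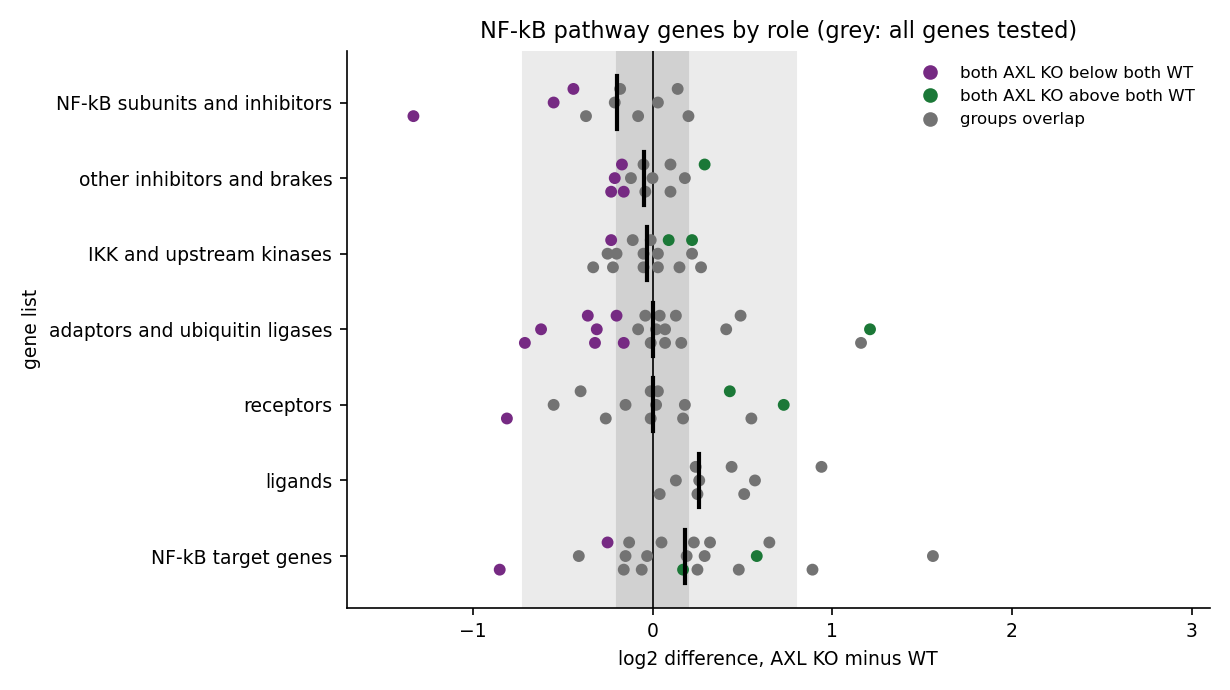
Log2 difference of AXL KO minus WT (horizontal axis) for every tested gene of 7 lists, with the list median as a black line; grey bands span the quartiles (−0.20 to 0.20, dark) and the 5th to 95th percentiles (−0.72 to 0.80, light) of all genes tested. Of all points Bcl3 lies farthest to the left, at −1.33, and Cxcl10 farthest to the right, at 1.56.

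Markers of mammary epithelial and other cells were set beside Bcl3. The summed level of 8 marker lists overlapped between the groups for 7. A sum mostly follows its most abundant genes. Single markers in these lists with groups apart were Krt18, Cd14 and Lep, lower in AXL KO, and Cd53 and Klrd1, higher. Of all genes tested 14.5% were lower and 14.7% higher in this way. The exception among the sums was that of the B cell markers, at 1.12 and 0.6 CPM in AXL KO, against 1.31 and 1.36 CPM in WT. In that list 5 of 5 genes were under 1 CPM in every library. Macrophage markers (6 genes) summed to 161 and 237 CPM in AXL KO, against 232 and 166 CPM in WT. Pan-leukocyte markers (5 genes) summed to 137 and 183 CPM in AXL KO, against 172 and 90.8 CPM in WT, and T and NK cell markers (7 genes) to 9.61 and 13.4 CPM in AXL KO, against 17.0 and 2.57 CPM in WT. Fibroblast markers (6 genes) summed to 272 and 901 CPM in AXL KO, against 679 and 975 CPM in WT, endothelial markers (5 genes) to 80.9 and 108 CPM in AXL KO, against 94.1 and 93.7 CPM in WT, and adipocyte markers (5 genes) to 88.1 and 99.0 CPM in AXL KO, against 57.1 and 119 CPM in WT. Nfkb1, like the summed levels of the pan-leukocyte markers, the T and NK cell markers and the interferon response genes, was lowest in WT replicate 2. The macrophage sum was lowest in AXL KO replicate 1. Of the 6 mammary epithelial markers 2, Epcam and Cdh1, were also lowest in WT replicate 2, so this trait was not particular to leukocyte genes. The part of these markers in the levels of the 10 genes was not tested.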

How the data were processed

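The deposited files hold raw read counts per Ensembl gene, made by the authors. Per the submitters' processing notes, CASAVA 1.8, TopHat2 2.0.10, HTSeq 0.5.3, DESeq2 1.4.5 and build GRCm38 are listed, with no role or order given. The annotation release and the strand setting were not given in the sources used here. Summary lines that name no gene (5 per file) held between 29.4% and 35.6% of all lines summed and stayed out of library sizes. Symbols, positions and exon lengths came from GENCODE M21, which matched 36345 of 38293 IDs, and promoter sequences from RefSeq (GRCm38.p6).

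Genes were kept with filterByExpr, scaled with TMM factors and tested across all 14330 genes by quasi-likelihood in edgeR 4.0.16 (legacy=FALSE, no covariates), with Benjamini-Hochberg adjustment at 0.05. The common dispersion was 0.0961. Standard errors are the log2 difference over the square root of F. With 2 against 2 libraries an exact permutation test cannot go below a two-sided p of 0.333, so none was run. Gaps between replicates use log2 CPM with a prior count of 2. TPM used the union of annotated exons. Alternatives were DESeq2 1.42.0 and limma-voom 3.58.1 (R 4.3.3), other scalings and filters, legacy settings, the replicate number as a block, and each library left out. The tests were tried on simulated counts.

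The 10 members and all lists were chosen with earlier results of these data known, and the kappa B consensus was added after the data were seen. Named were all members and, in each pathway list, the 4 tested genes with the smallest p.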

Additional observations from a re-analysis of the deposited data

How the results depend on the processing

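The number of members called was 0 under all 12 alternatives. Over all genes edgeR called 0, DESeq2 16, and between 0 and 216 with 1 library left out, the highest without WT replicate 1. The members' median of −0.20 ran from −0.34 (without WT replicate 2) to −0.01 (without WT replicate 1). The count of members with groups apart, 3, ran from 5 to 8 with 1 library left out, where a single library stands for its group. Dropping WT replicate 1 gave 4 members lower and 4 higher in AXL KO, beside 38.8% and 40.1% of all genes. Dropping WT replicate 2 gave 8 lower and 0 higher, beside 33.7% and 33.2%. With AXL KO replicate 1 left out 4 were lower and 1 higher, beside 25.9% and 26.7%. With AXL KO replicate 2 left out 5 were lower and 0 higher, beside 30% of all genes in each direction. Of 120 member values under the alternatives 112 kept their direction and side of the threshold. The other 8 turned direction, all with a library left out: Nfkb1 (−0.26), Nfkb2 (−0.03), Nfkbie (−0.32) and Nfkbiz (0.13) without WT replicate 2, Rela (0.02) and Relb (0.12) without WT replicate 1, and Nfkbie (−0.06) and Nfkbiz (0.09) without AXL KO replicate 2. The cause was not tested. The widest values with a library left out were 0.87 (Nfkb1), 0.33 (Nfkb2) and 0.50 (Nfkbie) without WT replicate 1, −0.40 (Rela) and −0.26 (Relb) without WT replicate 2, and −0.54 (Nfkbiz) without AXL KO replicate 1. Bcl3 ran from −1.49 to −1.19, with adjusted p-values from 0.118 to 1.0.

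The deviations of same-numbered libraries correlated at −0.045, and the labels give no shared animal or day, so the libraries share only a number. With the replicate block edgeR called 0 genes, 571 had an unadjusted p under 0.05 instead of 314, and the log2 difference of Bcl3 was −1.34.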

Other observations

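Some pathway genes outside the naming rule, chosen after their values were seen, had wide spreads. Traf1, an adaptor gene that NF-kB induces, had 112 and 62.0 CPM in AXL KO, against 69.4 and 8.06 CPM in WT, and a log2 difference of 1.16 that was 3.43 without WT replicate 1 and 0.32 without WT replicate 2. Rnf31, which encodes the catalytic subunit of the linear ubiquitin ligase, had 50.7 and 47.3 CPM in AXL KO, against 50.0 and 19.9 CPM in WT. Its product acts in a complex with that of Sharpin, which was higher in WT replicate 2 than in the other 3 libraries. Pigr, the gene of the receptor that carries IgA into milk, had 39.7 and 279 CPM in AXL KO, against 189 and 14.0 CPM in WT. Lcn2, which encodes the iron-carrier binding protein lipocalin 2, was the target gene with the most reads, at 3491 and 3547 CPM in AXL KO, against 2752 and 5134 CPM in WT. None of these passed edgeR's quasi-likelihood test, with an adjusted p of 0.9997 for each.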
